A study of Mus musculus with 8 samples.

Results

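Serotonin receptor genes were examined in RNA-seq libraries from the primary motor cortex (M1) of mature mice. The 9 genes are *Htr1a*, *Htr1b*, *Htr1f*, *Htr2a*, *Htr2c*, *Htr3a*, *Htr4*, *Htr5a* and *Htr7*, out of 38031 genes with a counted transcript. They were taken by name from a list made with earlier results of these data known. Each gene is represented by its annotated transcript with the lowest Ensembl number. Male Swiss Webster mice received a lentivirus in M1 at postnatal day 21 to 25 and tissue was taken at postnatal day 49 to 53. In 4 libraries the virus carried an shRNA against *Fezf2* (*Fezf2 shRNA*) and in 4 a non-silencing shRNA (control), and both vectors also carried an mCherry reporter. The comparison asks whether transcripts of these receptors differ when *Fezf2*, a transcription factor of layer 5 projection neurons, is reduced in mature cortex. Expression of both constructs was driven by the *Synapsin I* promoter, which is active in neurons, while the tissue was cut out by its mCherry signal and includes every cell type of the region, transduced or not. In such bulk tissue, fewer cells of a type and less RNA per cell cannot be told apart.

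Serotonin is released in the cortex from axons of neurons whose cell bodies lie in the raphe nuclei of the brainstem, and the receiving cells respond according to the receptors they carry. Htr1 receptors and *Htr5a* couple to Gi/o proteins, which lower cyclic AMP and dampen firing. Htr2 receptors couple to Gq and phospholipase C, and *Htr4* and *Htr7* couple to Gs and raise cyclic AMP. *Htr3a* encodes a subunit of a cation channel opened by serotonin, and in cortex it marks a class of interneurons.

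Because an shRNA can act on transcripts other than its target, its sequence was compared with the transcripts of the receptor genes. The 2 strands of the 19-base *Fezf2 shRNA* are shown first, with bases 2 to 8 of the antisense strand in capitals, and then the stretches of GENCODE M21 transcripts (build GRCm38) that share the longest runs with either strand, with the shared bases in capitals and up to 6 bases on each side.
shRNA, sense strand: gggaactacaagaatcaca
shRNA, antisense strand: tGTGATTCttgtagttccc
*Fezf2*, across the junction of exons 4 and 5, coding sequence: caaaaaGGGAACTACAAGAATCACAagctc
*Htr3a*, exon 2, coding sequence, bases 4 to 14 of the sense strand: ctggctAACTACAAGAAgggggt
*Htr1f*, exon 3, coding sequence, bases 6 to 14 of the antisense strand: cagattTTCTTGTAGctgtcc
*Htr1a*, exon 1, 3′ UTR, bases 2 to 9 of the sense strand: aaagttGGAACTACtttggg
The whole of the sense strand was found in *Fezf2*, and the longest run in a receptor transcript was 11 bases, in *Htr3a* (chromosome 9, 48908674 to 48908684, minus strand). The *Htr1f* run has 9 bases (chromosome 16, 64926711 to 64926719, minus strand) and the *Htr1a* run has 8 (chromosome 13, 105446097 to 105446104, plus strand). *Htr4* also shares 9 bases with the antisense strand. The longest runs of the other 5 genes had 6 to 8 bases. The 7-base site that pairs with bases 2 to 8 of the antisense strand, GAATCAC, occurred in the counted transcript of 0 of the 9 receptor genes, against 9.47% of 58797 protein-coding transcripts. It is present in *Fezf2*.

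Between 54684016 and 58003814 counts fell on genes in each library, so depth was nearly equal. A normalized count is a count divided by the effective library size (edgeR's TMM method) and multiplied by the mean effective size of the 8 libraries. *Fezf2*, the targeted gene, had 688, 767, 735 and 702 normalized counts in control replicates 1 to 4 and 621, 583, 568 and 592 in *Fezf2 shRNA* replicates 1 to 4. All 4 *Fezf2 shRNA* libraries lay below all controls, at 81.8% of the control mean, and edgeR's quasi-likelihood test, adjusted by Benjamini-Hochberg, gave a log2 fold change of -0.29 (standard error, SE, 0.0781) with an adjusted p of 0.0824. DESeq2's Wald test gave -0.28 with an adjusted p of 0.0256 and so placed *Fezf2* past the threshold used for the receptor genes (an adjusted p of at most 0.05 and a log2 fold change of at least 0.2 in either direction). Longer genes had higher log2 fold changes in these libraries. Once this trend with gene span was removed, *Fezf2* had -0.18 (adjusted p = 0.447, edgeR). Neuronal markers were abundant, with summed levels of 4289 to 4751 CPM (counts scaled to a common library total) in controls and 4523 to 4697 CPM with *Fezf2 shRNA* for 10 genes. Of these 10, 3 had an unadjusted p under 0.05 (log2 fold changes of 0.19 for *Syt1*, 0.28 for *Rbfox3* and -0.19 for *Neurod6*), 0 passed the threshold with edgeR and 1 with DESeq2. The groups did not overlap for *Syt1* and *Rbfox3*. *Syt1* spans 513331 bases and *Rbfox3* 418418, and the median log2 fold change of genes over 300 kb was 0.29. *Neurod6* spans 3442 bases, and the median of genes under 10 kb was -0.12. Among 10 markers of layer 5 and 6 projection neurons, *Fezf2* included, 9 were tested, of which 8 had a negative log2 fold change (median -0.16). In that list 2 had an unadjusted p under 0.05 (*Fezf2* and *Crym*, the latter with -0.27), both without overlap between the groups, and 0 passed with edgeR and 1 with DESeq2. Over all 9959 genes tested with edgeR, 19.6% had an unadjusted p under 0.05 and 11.8% had groups without overlap. Of 5 markers of serotonergic cell bodies, 4 had few counts. *Fev* had 0 counts in all 8 libraries, which allows at most 3 counts in each (counting error only), *Slc6a4*, the serotonin transporter, had 0 to 4, *Gata3* 0 to 2 and *Tph2*, the neuronal enzyme of serotonin synthesis, 23 to 47. The fifth, *Slc18a2*, a vesicular transporter of all monoamine neurons, had 346 to 572. The 8 markers of oligodendrocytes summed to 1136 to 2058 CPM in controls and 843 to 1384 CPM with *Fezf2 shRNA*, 8 of 8 had a negative log2 fold change, 6 of them at an unadjusted p under 0.05, and 0 passed that threshold with edgeR and 2 with DESeq2. Whether the levels of any of these lists bear on the receptor genes was not tested.

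Of the 9 receptor genes, 5 exceeded 8 CPM in 4 or more libraries and entered the test across 9959 genes, and 0 of these 5 passed that threshold. Across all genes tested 2.09% passed it, most of them with an increase (1.96%, against 0.131% with a decrease). At an unadjusted p under 0.05 stood 1 of the 5, *Htr2c*, where 19.6% of all genes tested did (7.73% with a decrease). With DESeq2's Wald test 0 of 5 passed the threshold as well (7.55% of all genes did), and *Htr1f* and *Htr2c* had an unadjusted p under 0.05. The remaining 4 genes, *Htr1b*, *Htr3a*, *Htr4* and *Htr7*, had too few counts for this filter and were compared by an exact permutation test over the 8 libraries, for which 4 against 4 samples cannot give a two-sided p under 0.0286. With a filter of 1 CPM all 9 genes could be fitted together with 16481 genes, and 0 of 9 passed (0.51% of all genes did). The ranges of the 2 groups overlapped for each of the 9 genes, whereas they did not overlap for 11.8% of the 9959 genes tested. The median log2 fold change was -0.04 over the 5 genes tested and -0.16 over the 9 genes of the wider fit, beside -0.03 over all genes in either fit.

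**Figure D1:**
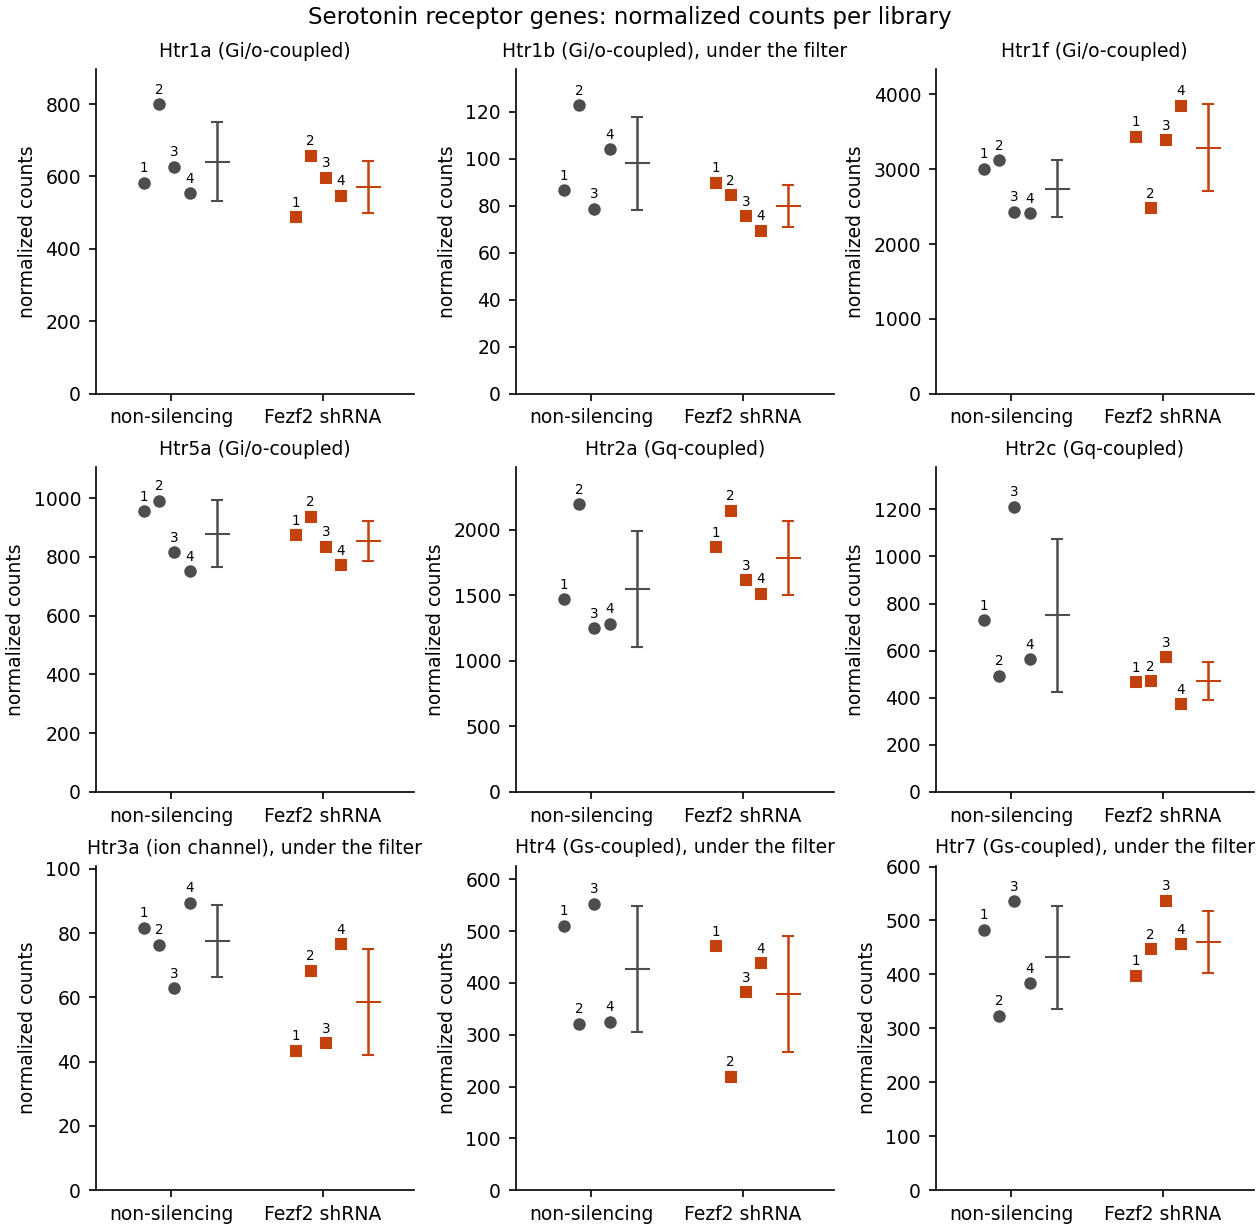
Normalized counts (vertical axis, linear and from 0) of the 9 serotonin receptor genes in each library, non-silencing shRNA as circles and *Fezf2 shRNA* as squares, with replicate numbers; the bars give the mean and SD of 4 libraries. The groups overlap in every panel, and control replicate 3 stands highest for *Htr2c* with 1211 normalized counts.

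Among the Gi/o-coupled receptors, *Htr1f*, *Htr5a* and *Htr1a* were measured well above the filter. *Htr1f*, a Gi/o-coupled receptor, had the most reads of the 9 genes, with 3008, 3121, 2431 and 2409 normalized counts in control replicates 1 to 4 and 3435, 2481, 3389.8 and 3851 in *Fezf2 shRNA* replicates 1 to 4. The *Fezf2 shRNA* replicates 1, 3 and 4 lay above all controls, while replicate 2 lay within the control range. The means were 3289 ± 577 with *Fezf2 shRNA* and 2742 ± 375 in controls (SD, n = 4 each), and the log2 fold change of 0.26 (SE 0.133, 95% interval -0.03 to 0.56, adjusted p = 0.295, edgeR) did not pass the threshold. Its interval on the minus strand of chromosome 16 (64924729 to 65105854, build GRCm38) spans 181 kb, and 1.42% of it is exonic. Once the trend of log2 fold change with gene span was removed, the value for *Htr1f* was 0.09. Without *Fezf2 shRNA* replicate 2 it was 0.38 (adjusted p = 0.0863, edgeR), and without *Fezf2 shRNA* replicate 4 it was 0.18 (adjusted p = 0.546, edgeR).

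*Htr1a*, the receptor that serves as autoreceptor on serotonergic neurons and as a postsynaptic inhibitory receptor in cortex, had 583, 799, 628 and 554 normalized counts in control replicates 1 to 4. In *Fezf2 shRNA* replicates 1 to 4 it had 487, 657, 596 and 547. Replicate 2 was the highest library in both groups, and the 2 *Fezf2 shRNA* libraries below all controls were replicates 1 and 4. Its log2 fold change was -0.16 (SE 0.133, 95% interval -0.46 to 0.13, adjusted p = 0.505, edgeR). Without control replicate 2 it was -0.04, and with the span trend removed -0.06. *Htr1a* lies on chromosome 13 (105443639 to 105448122, plus strand) and consists of a single exon, so that all of its counts fall on exonic bases.

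*Htr5a*, a Gi/o-coupled receptor found mainly in the brain, gave nearly equal levels in both groups. The normalized counts were 955, 991, 815 and 751 in control replicates 1 to 4 and 874, 937, 835 and 772 in *Fezf2 shRNA* replicates 1 to 4, with all 4 *Fezf2 shRNA* libraries inside the control range. Its log2 fold change was -0.04 (SE 0.105, 95% interval -0.27 to 0.19, adjusted p = 0.859, edgeR), the narrowest interval among the 5 genes tested, and it was 0.044 with the span trend removed. The gene lies on chromosome 5 (27842149 to 27855088, plus strand) in 2 exons, and 41.5% of the interval is exonic.

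*Htr1b*, which acts as a terminal autoreceptor and heteroreceptor, had low counts. The raw counts were 88, 119, 80 and 107 in control replicates 1 to 4 and 89, 84, 76 and 68 in *Fezf2 shRNA* replicates 1 to 4. *Fezf2 shRNA* replicates 3 and 4 lay below all controls after normalization and the other 2 did not. The normalized means were 79.8 ± 9.05 with *Fezf2 shRNA* and 98.0 ± 19.6 in controls (SD, n = 4 each). The former was 81.4% of the control mean (p = 0.171 in a two-sided exact permutation test). The log2 ratio was -0.30, and without control replicate 2, the highest library, it was -0.17. In the fit of genes over 1 CPM its log2 fold change was -0.29 (95% interval -0.74 to 0.15, adjusted p = 0.486, edgeR). The counted transcript of *Htr1b* holds a single exon of 1273 bases on chromosome 9 (81631343 to 81632615, minus strand) and overlaps the antisense gene *D430036J16Rik*, and since reads of both strands were counted, reads of the 2 genes cannot be told apart there. A longer annotated transcript adds 4265 bases on both sides, and in that added part the *Fezf2 shRNA* libraries held 81.5% of the control mean (exact permutation test, p = 0.429).

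Of the Gq-coupled receptors, *Htr2a* and *Htr2c* had mean differences of opposite sign. *Htr2a*, the receptor through which hallucinogens act on cortical projection neurons, had 1469, 2197, 1249 and 1283 normalized counts in control replicates 1 to 4 and 1869, 2147, 1615 and 1512 in *Fezf2 shRNA* replicates 1 to 4. Control replicate 2 was the highest of all 8 libraries, and the other 3 controls lay below all *Fezf2 shRNA* libraries. Its log2 fold change was 0.21 (SE 0.176, 95% interval -0.18 to 0.59, adjusted p = 0.530, edgeR). Without control replicate 2 it was 0.42, with an adjusted p of 0.0805 in the same edgeR test, and without *Fezf2 shRNA* replicate 2 it was 0.10. *Htr2a* lies on chromosome 14 (74640840 to 74709494, plus strand).

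*Htr2c*, the receptor whose transcript is edited by ADAR enzymes in its coding sequence, showed the widest difference among the 9 genes with all 8 libraries. The normalized counts were 730, 493, 1211 and 563 in control replicates 1 to 4 and 466, 470.3, 572 and 374 in *Fezf2 shRNA* replicates 1 to 4. The *Fezf2 shRNA* replicates 1, 2 and 4 lay below all controls, and replicate 3 lay above control replicates 2 and 4. The *Fezf2 shRNA* mean was 62.8% of the control mean, which gives a log2 fold change of -0.67 (SE 0.252, 95% interval -1.23 to -0.12, unadjusted p = 0.0224, adjusted p = 0.185, edgeR), so *Htr2c* did not pass the threshold. The size of this value rested on control replicate 3, for without it the log2 fold change was -0.33 (95% interval -0.71 to 0.04, adjusted p = 0.368, edgeR). The exact permutation test over all 8 libraries gave p = 0.0857. The study's own DESeq2 analysis lists *Htr2c* among its changed genes, and the reason for this difference was not tested. Its text describes nearly all changed genes of the pathways that hold *Htr2c* as increased and gives no separate direction for *Htr2c*. The control libraries varied by 43.1% of their mean for *Htr2c*, more than in 99.5% of the genes tested, whose median was 8.26%, and the *Fezf2 shRNA* libraries by 17.2%.

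**Figure D2:**
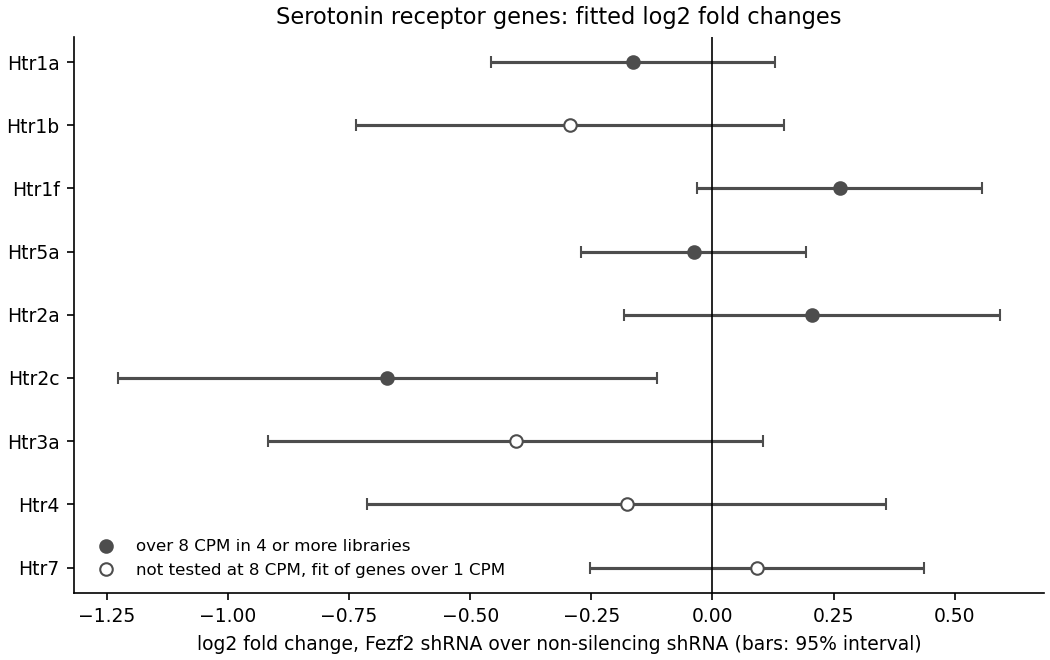
Log2 fold change (horizontal axis) of each serotonin receptor gene with its 95% interval, filled points from the fit of 9959 genes over 8 CPM and open points from the fit of 16481 genes over 1 CPM. The interval of *Htr2c*, -1.23 to -0.12, lies below 0 before adjustment for the number of genes, and the other 8 intervals include 0.

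*Htr2c* spans 235 kb of the X chromosome (146962513 to 147197274, plus strand), of which the 6 exons of the counted transcript make up 2.02%. Log2 fold changes were higher in longer genes in these libraries, with a median of -0.12 over the 2153 genes under 10 kb, 0.15 over the 1297 genes of 100 to 300 kb and 0.29 over the 407 longer genes. Of the 1297 genes in its own span class, 3 had a lower log2 fold change than *Htr2c*, and it ranked 14 from the lowest among all 9959. Without control replicate 3 it ranked 121 of 9845. By contrast *Htr1f*, in the same span class, stood above 78.0% of it. Removing the span trend moved *Htr2c* to -0.87 (unadjusted p = 0.00534, adjusted p = 0.267, edgeR). The adjusted p of *Htr2c* was lowest without control replicate 2, at 0.0794 (edgeR), and DESeq2 with its shrinkage prior gave a log2 fold change of -0.26.

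**Figure D3:**
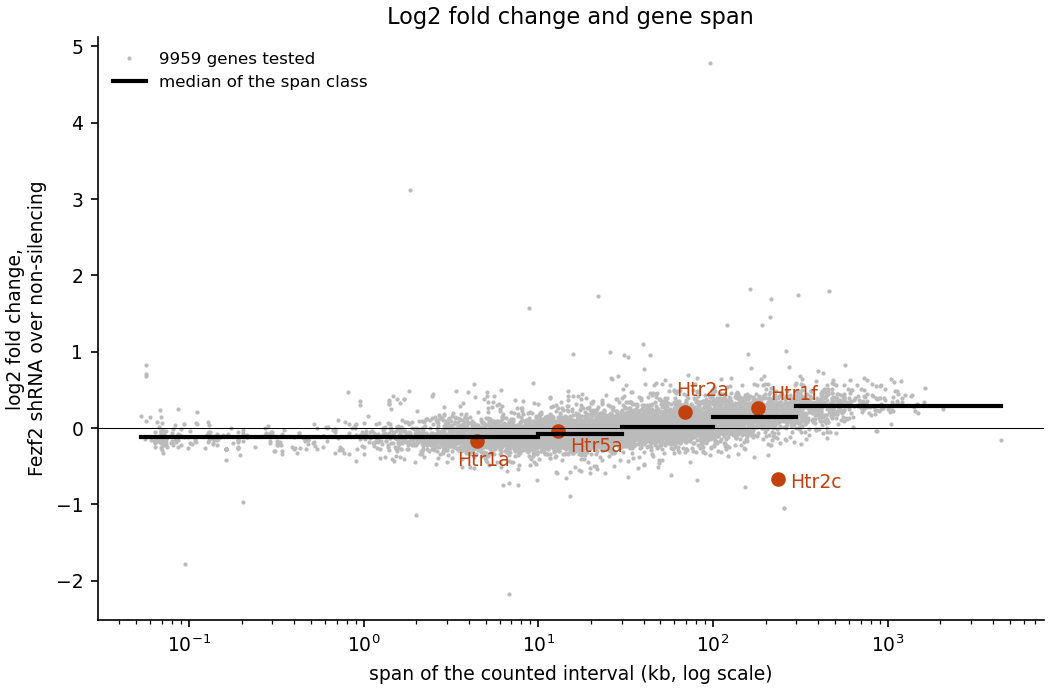
Log2 fold change (vertical axis) against the span of the counted interval in kb (horizontal axis, log scale) for 9959 genes, with the medians of 5 span classes as black lines and the 5 tested serotonin receptor genes marked. *Htr2c*, at 235 kb and -0.67, lies below the median of its class, 0.15, and *Htr1f*, at 181 kb, lies at 0.26.

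Nested transcripts of *Htr2c* allowed the reads to be divided along the gene. The end part, made of the last bases from 147183153 to 147197274 with exon 6 and of the first bases from 146962513 to 146963022, is 14.6 kb long and 27.4% exonic. For the parts, exonic bases are those in an exon of any *Htr2c* transcript in the counts, a wider measure than for the whole gene. The end part held 295, 143, 551 and 207 reads in control replicates 1 to 4 and 99, 122, 123 and 86 in *Fezf2 shRNA* replicates 1 to 4. All *Fezf2 shRNA* libraries lay below all controls, at 36.6% of the control mean after normalization, a log2 ratio of -1.45. The remaining 220 kb, which is 2.41% exonic on the same wider measure, held 447, 335, 680 and 372 reads in controls and 363, 346, 452 and 280 with *Fezf2 shRNA*. There the groups overlapped, and the log2 ratio was -0.32. The share of *Htr2c* reads in the end part was 39.8, 29.9, 44.8 and 35.8% in control replicates 1 to 4 and 21.4, 26.1, 21.4 and 23.5% in *Fezf2 shRNA* replicates 1 to 4, with means of 37.5 ± 6.28% and 23.1 ± 2.21% (SD, n = 4 each). A two-sided exact permutation test of the shares gave p = 0.0286, the lowest it can give for 4 against 4 libraries. The shares restate the counts of the 2 parts, so this p is no separate evidence, and it was not adjusted. Reads of the end part are those counted over the longer transcript and not over the nested one. Whether a spliced read was also counted over the intron it skips is not given in the sources used here, so the count of the remaining part may include reads that only cross it.

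Divided the other way, the first 26.8 kb with exons 1 and 2 held 88, 70, 198 and 93 reads in control replicates 1 to 4 and 36, 58, 67 and 31 in *Fezf2 shRNA* replicates 1 to 4. These groups did not overlap either, and the normalized log2 ratio was -1.20. The following 88.7 kb with exons 3 and 4 gave a log2 ratio of -0.73 and the last 119 kb with exons 5 and 6 one of -0.53, with overlapping groups in both. The first part and the end part share the bases from 146962513 to 146963022. Over whole genes, 11.8% of the 9959 tested had groups without overlap, and the share over parts of all genes was not measured. In all, 9 parts of 3 receptor genes were compared, and the exact permutation p of 0.0286 for the end part and for the first part became 0.129 after adjustment over these 9 parts (Benjamini-Hochberg). Without control replicate 3 the log2 ratio of the end part was -0.98 and that of the first part -0.78, and the groups did not overlap in either. For the 220 kb outside the end part it was -0.08.

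**Figure D4:**
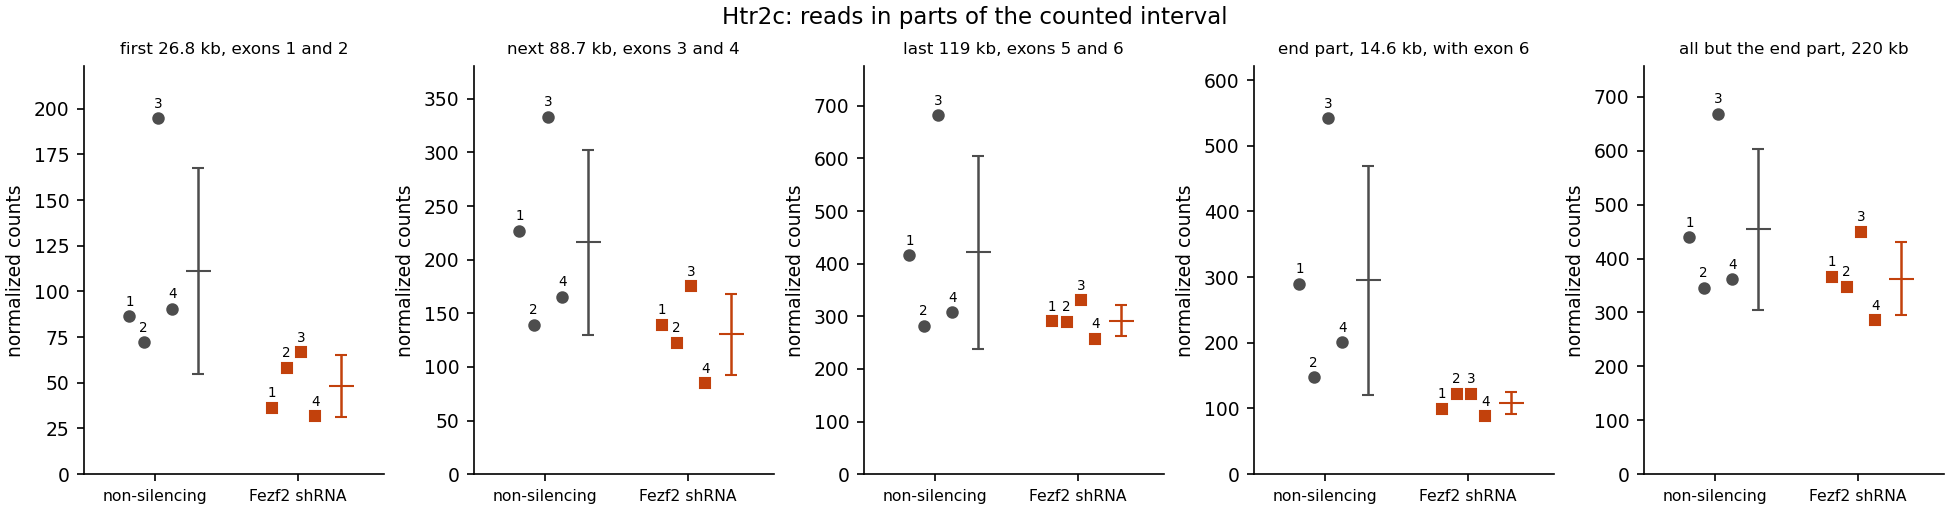
Normalized counts (vertical axis, linear and from 0) in 5 overlapping parts of *Htr2c* for each library, circles for non-silencing shRNA and squares for *Fezf2 shRNA*, with replicate numbers and the mean and SD of 4 libraries. All squares lie below all circles in the first 26.8 kb and in the end part with exon 6, and the groups overlap in the other 3 panels.

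Small RNA genes lie inside the intron between exons 2 and 3 of *Htr2c*, on the same strand, and reads over them are part of the counts of *Htr2c*. Over *Snora35*, *Gm22650*, *Mir764*, *Mir1912* and *Mir1264* there were 16 to 18 reads in control replicate 3, 12 in *Fezf2 shRNA* replicate 2 and 0 to 3 in each other library. Nearly equal numbers thus stood at 5 separate loci of a library. Whether these reads come from the small RNAs, from longer transcripts that cover them, or from spliced reads counted across the intron was not tested. *Htr2c* is also known as an abundant receptor of the choroid plexus, an epithelium outside the cortex. The defining choroid plexus markers *Folr1* and *Otx2* had 0 to 17 and 0 to 3 counts. *Ttr*, the most abundant of them in that epithelium, had 12, 18, 79 and 143 counts in control replicates 1 to 4 and 11, 18, 148 and 116 in *Fezf2 shRNA* replicates 1 to 4. The summed level of the 10 markers was 175 to 195 CPM in controls and 177 to 190 CPM with *Fezf2 shRNA*, but 96.9% of that sum came from *Enpp2* and *Igfbp2*. The other 8 markers, all under the filter, summed to 242 to 397 counts in controls and 230 to 439 with *Fezf2 shRNA*. Of these 8, 6 had a lower mean with *Fezf2 shRNA* (log2 ratios of -1.25 for *Folr1*, -0.79 for *Aqp1*, -0.74 for *Slc4a5*, -0.57 for *Otx2*, -0.43 for *Kl* and -0.01 for *Clic6*) and 2 a higher one (0.26 for *Ttr* and 0.20 for *Kcnj13*), with overlapping groups for all 8. The part of choroid plexus RNA in the *Htr2c* result was not tested.

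*Htr3a*, the channel subunit, had the lowest counts of the 9 genes. Raw counts were 83, 74, 64 and 92 in control replicates 1 to 4 and 43, 68, 46 and 75 in *Fezf2 shRNA* replicates 1 to 4. *Fezf2 shRNA* replicates 1 and 3 lay below all controls, and replicates 2 and 4 lay within the control range. The normalized mean was 75.4% of the control mean (58.5 ± 16.5 against 77.6 ± 11.2, SD, n = 4 each, two-sided exact permutation test, p = 0.171), and in the fit over 1 CPM the log2 fold change was -0.41 (95% interval -0.92 to 0.10, adjusted p = 0.403, edgeR). *Htr3a* lies on chromosome 9 (48899214 to 48911099, minus strand) and overlaps the antisense gene *Gm32335*, whose reads cannot be told apart from its own. Among 12 markers of the *Htr3a* class and other interneurons 9 were tested, of which 4 had an unadjusted p under 0.05, 0 passed the threshold with edgeR and 1 (*Adarb2*) with DESeq2. *Vip*, a peptide of this class, had a log2 fold change of -0.20 (adjusted p = 0.244, edgeR) and *Reln*, of the layer 1 members of the class, 0.20 (adjusted p = 0.172, edgeR). *Vip* spans 8400 bases and *Reln* 459441, and the median log2 fold change was -0.12 for genes under 10 kb and 0.29 for genes over 300 kb.

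The Gs-coupled receptors *Htr4* and *Htr7* passed 8 CPM in 3 libraries each and had mean differences that were small beside their spread. *Htr4* had 510.5, 321, 553 and 325 normalized counts in control replicates 1 to 4 and 471, 219, 382 and 438 in *Fezf2 shRNA* replicates 1 to 4. Its values fell into a higher and a lower pair in the controls, and *Fezf2 shRNA* replicate 2 was the lowest of all 8 libraries. The log2 ratio was -0.18 (88.4% of the control mean, two-sided exact permutation test, p = 0.571), and without *Fezf2 shRNA* replicate 2 it was 0.011. *Htr7*, which spans 97.1 kb of chromosome 19 (35960315 to 36057373, minus strand), had 483, 323, 536 and 384 normalized counts in control replicates 1 to 4 and 398, 447, 536 and 456 in *Fezf2 shRNA* replicates 1 to 4. *Fezf2 shRNA* replicate 3 was level with the highest control and the other 3 lay within the control range. Its log2 ratio was 0.09 (two-sided exact permutation test, p = 0.686), with a 95% interval of -0.25 to 0.44 in the fit over 1 CPM, and the ratio was -0.03 without control replicate 2 and 0.21 without control replicate 3. An added 3′ part of 629 exonic bases from a longer *Htr7* transcript held 46 to 105 reads in controls and 53 to 88 with *Fezf2 shRNA* (exact permutation test, p = 0.886). *Htr4* lies on chromosome 18 (62324204 to 62467806, plus strand).

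**Figure D5:**
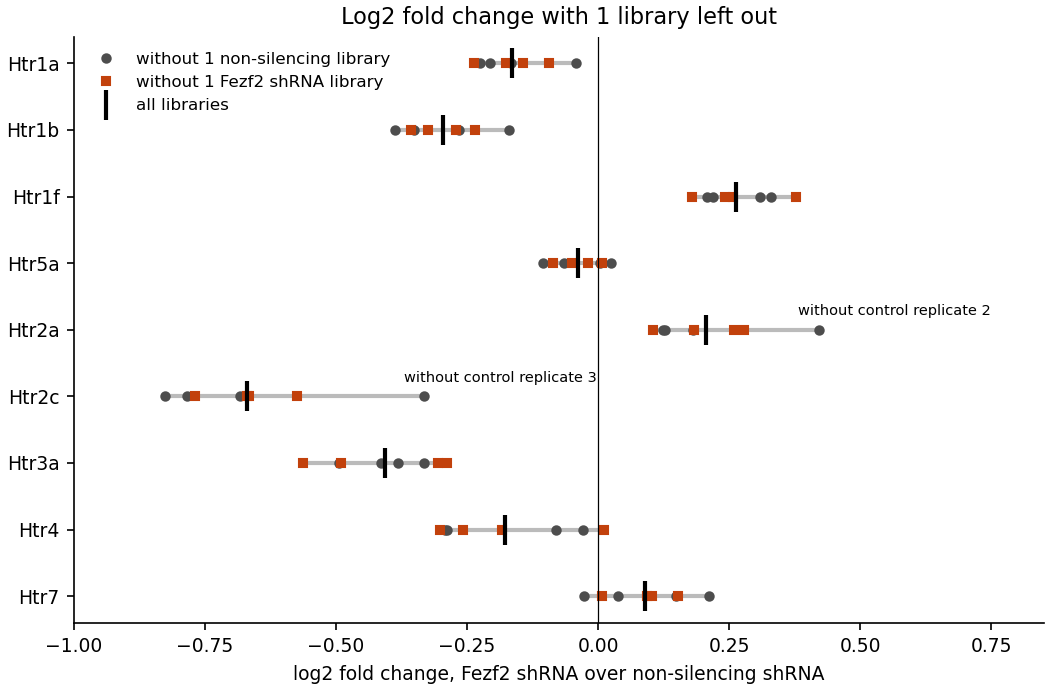
Log2 fold change (horizontal axis) of each serotonin receptor gene with all libraries (black bar) and with each of the 8 libraries left out in turn (circles, a non-silencing library left out; squares, a *Fezf2 shRNA* library left out); for *Htr1b*, *Htr3a*, *Htr4* and *Htr7* the value is the log2 ratio of mean normalized counts. *Htr2c* moves to -0.33 without control replicate 3 and *Htr2a* to 0.42 without control replicate 2, and the points of *Htr4*, *Htr5a* and *Htr7* lie on both sides of 0.

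Levels can be compared between genes only per length, so CPM was divided by the kb of the counted interval, introns included. On this scale the control levels were highest for *Htr1a* (2.54 ± 0.434 CPM per kb, SD, n = 4), followed by *Htr1b* (1.37 ± 0.274) and *Htr5a* (1.21 ± 0.156), whose ranges over the control libraries overlap. *Htr2a* (0.401 ± 0.114) and *Htr1f* (0.269 ± 0.0367) came next, with ranges that did not overlap each other or their neighbours in the order. Below them stood *Htr3a* (0.116 ± 0.0167), *Htr7* (0.0790 ± 0.0175), *Htr2c* (0.0567 ± 0.0245) and *Htr4* (0.0528 ± 0.0151), each of which overlapped the next. The share of exonic bases differs widely between these intervals, from 1.42% in *Htr1f* to 100% in *Htr1a* and *Htr1b*, and CPM per kb counts the intron length in full. The end part of *Htr2c* had 0.358 ± 0.212 CPM per kb in controls, against 0.0366 ± 0.0120 in the rest of the gene.

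The 5 other serotonin receptor genes with a counted transcript were all under 8 CPM. *Htr6*, a Gs-coupled receptor, had 57 to 106 counts in a library, *Htr5b* 16 to 35, *Htr1d* 1 to 18 and *Htr3b*, the second channel subunit, 0 to 4. *Htr2b* had 156 to 240 counts, with 3 of 4 *Fezf2 shRNA* libraries above all controls (126% of the control mean, two-sided exact permutation test, p = 0.0571), but it lies on the opposite strand inside *Psmd1*, a proteasome subunit gene with 3846 to 4387 counts, so its reads are uncertain.

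None of the genes that make, carry, break down or transmit serotonin passed the threshold with edgeR. Of 10 genes for synthesis, transport and breakdown 2 had enough counts to be tested and both had negative values. *Maoa*, which oxidizes serotonin, had a log2 fold change of -0.16 (adjusted p = 0.317, edgeR) and *Aldh2*, which acts on the product, -0.15 (adjusted p = 0.251, edgeR), the latter at an unadjusted p of 0.0482, and 0 of the 2 passed with DESeq2. All 11 G protein alpha subunit genes were tested, 5 with lower and 6 with higher values, in a range of -0.18 for *Gnai2* to 0.17 for *Gnaq*, the subunit to which the Htr2 receptors couple, and their median was 0.01. In this group 1 gene, *Gnai2*, had an unadjusted p under 0.05, and 0 passed with DESeq2. *Gnao1*, the most abundant Gi/o subunit of brain, had 0.08 (adjusted p = 0.586, edgeR) and *Gnas*, the Gs subunit, -0.09 (adjusted p = 0.459, edgeR).

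Among 9 genes for receptor partners, RNA editing and scaffolds, 8 were tested, 1 of them with an unadjusted p under 0.05 (*Adarb2*), and 0 passed the threshold with edgeR. *Adarb1*, the enzyme that edits transcripts including that of *Htr2c*, had a log2 fold change of 0.07 (adjusted p = 0.503, edgeR) and *Adar* -0.03 (adjusted p = 0.810, edgeR). *Adarb2*, a relative of these enzymes without known editing activity and a marker of the *Htr3a* class of interneurons, had 4680 ± 354 normalized counts in controls and 6039 ± 749 with *Fezf2 shRNA* (SD, n = 4 each), with all *Fezf2 shRNA* libraries above all controls. The log2 fold change of *Adarb2* was 0.37 (SE 0.0912, adjusted p = 0.0656, edgeR), and DESeq2's Wald test placed it past the threshold. It spans 558665 bases, and the median log2 fold change of genes over 300 kb was 0.29. *Dlg4*, the postsynaptic scaffold that binds *Htr2a*, had 0.01 (adjusted p = 0.970, edgeR) and *Arrb1*, an arrestin, -0.06 (adjusted p = 0.616, edgeR).

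For each receptor gene above the filter, the genes most like it over the 8 libraries were taken by Pearson's r of log2 CPM among 9958 others, as a description with no test, since the points share libraries and the best of so many genes are high by selection. For *Htr2c* they were *Cox7a2l* (r = 0.985), *Uqcc2* (0.968) and *Mgat1* (0.965). *Htr5a* was closest to *Slitrk1* (0.981), *Htr2a* to *Stum* (0.979), *Htr1f* to *Gm16043* (0.974) and *Htr1a* to *Letm1* (0.940). The other 2 genes were *Ptprj* and *Gm17344* for *Htr5a*, *Ptgfrn* and *Gm27008* for *Htr2a*, *Pcdhb16* and *Zfp354c* for *Htr1f*, and *Rps6kl1* and *Hyou1* for *Htr1a*. The log2 fold changes of the 3 genes closest to *Htr2c* were -0.16, -0.15 and -0.15, beside -0.67 for *Htr2c* itself.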

How the data were processed

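Total RNA libraries (TruSeq) of M1 were sequenced as paired reads. Per the labels and the study's methods, the authors aligned reads to mm10 (GRCm38) with TopHat2 2.1.1 and counted them per Ensembl transcript with BEDTools 2.26.0 multiCov. The deposited counts are raw, cover whole genomic intervals with introns and are not split by strand. Of 94647 transcripts, 91320 were found in GENCODE M21, and the other 3327 held 1.82% of counts. The deposited table of DESeq2 results holds the authors' own fold changes and p-values and was not used.

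Each gene was represented by its transcript of lowest Ensembl number (38031 genes, 54684016 to 58003814 counts per library). Genes exceeding 8 CPM in 4 or more libraries were tested in edgeR 4.0.16 (TMM, quasi-likelihood, R 4.3.3) with no covariate and Benjamini-Hochberg adjustment, the threshold being an adjusted p of at most 0.05 and a log2 fold change of at least 0.2. Genes under the filter and parts of genes were compared by two-sided exact permutation tests (scipy 1.17.1). Reads of a part are the difference between nested transcripts, and how spliced reads were counted over skipped introns is not given in the sources used here. The span offset was a per-library loess (span 0.3) on log span. Log2 CPM used a prior count of 2. Alternatives were DESeq2 1.42.0 with and without prior, its size factors, library totals, filters of 1 CPM or none, the widest transcript, the replicate number as a block, the span offset, other thresholds and each library left out.

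Each library was treated as 1 animal, as the record gives 4 of each treatment; otherwise p-values measure only the spread between libraries. Named genes are the 9 receptor genes, *Fezf2*, list members by a rule of counts or calls, and the 3 most similar genes. *Vip*, *Reln*, *Maoa*, *Aldh2*, *Gnai2*, *Adar*, *Rbfox3*, *Syt1*, *Neurod6*, *Crym*, *Slc18a2*, choroid plexus markers, genes overlapping the receptor genes and single parts were also named with their values seen. The members and lists were chosen with earlier results of these data known. On simulated counts of 9893 genes with 200 changed, the edgeR step recovered 96% of changes of 1 and 68% of 0.5 (log2), and 6.82% of its calls were false. These counts had the same replicate variation for every gene and no trend with span. The rates therefore do not tell how often a change would be found in more variable genes. Control libraries varied by 43.1% of their mean for *Htr2c* and by 28.5% for *Htr2a*.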

Additional observations from a re-analysis of the deposited data

Results flagged for a closer look

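Of 38 groups of 4 libraries examined for a single library far from the others (9 receptor genes, *Fezf2* and 9 parts of receptor genes, in each treatment), 1 stood out, where chance gives about 1 in 20. In the first 26.8 kb of *Htr2c*, control replicate 3 had 195 normalized counts, and the gap to the next control was 0.851 of the range of the 4 controls. The other controls had 72.3 to 90.5. The same library was the highest control for all parts of *Htr2c* and for the gene as a whole, without passing the limit there, and the values without it are given beside those results. The cause was not tested.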

How the results depend on the processing

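The number of serotonin receptor genes past the threshold was 0 under all 36 alternatives, and that of the 4 genes under the filter with an exact permutation p of at most 0.05 was 0 under all 4. Over all genes tested, 208 passed. Under other choices the number was 84 with a filter of 1 CPM, 103 with no filter, 734 with DESeq2 and its prior, 752 without the prior, 2 with the gene span offset, 534 at an adjusted p of 0.1, and 0 to 368 with a library left out. The genes of the other serotonin lists had 0 calls, and 1 (*Adarb2*) with DESeq2 with or without its prior. Deviations of control and *Fezf2 shRNA* libraries with the same replicate number correlated at 0.31, 0.09, -0.13 and 0.17, with 2 of 4 numbers correlating best with themselves. The labels give no pairing, and these values do not settle whether one exists. With the replicate block 90 genes passed, 2 with the block and the span offset, and 0 receptor genes in either. With the block, edgeR gave *Htr2a* 0.23 (SE 0.0812, unadjusted p = 0.0232, adjusted p = 0.179). For *Htr2c* the blocked edgeR fit gave -0.60 (SE 0.152, unadjusted p = 0.00448, adjusted p = 0.101). The sign turned for *Htr5a* (0.044 with the span offset, 0.052 with block and offset, and -0.105 to 0.024 with a library left out), for *Htr7* (-0.0069 with the offset, -0.026 without control replicate 2, and at 1 CPM -0.0077 with the offset and -0.019 without control replicate 2) and for *Htr4* (0.012 at 1 CPM without *Fezf2 shRNA* replicate 2). The log2 ratio of the *Htr2c* end part ranged from -1.67 to -0.98 and that of the first part from -1.40 to -0.78 with a library left out. Fits at 1 CPM combined with another choice, and parts without control replicate 3, were added after the data were seen. At this depth *Htr1b* and *Htr3a*, with 43 to 119 counts, allow only wide intervals.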
